A study of Homo sapiens with 15 samples.

Results

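The comparison set 5 xenograft tumors of the HuCC-T1 model against 5 of the EGI-1 model. These are 10 of the 15 tumors in the series, chosen as the vehicle-treated tumors that the labels give to these lines. HuCC-T1 is an intrahepatic and EGI-1 an extrahepatic human cholangiocarcinoma (CCA) cell line. Both sets of tumors grew from injected cells in NRG mice, which are non-obese diabetic animals that lack Rag1 and the interleukin-2 receptor gamma chain, aged 8 weeks. All 10 mice received phosphate-buffered saline intraperitoneally once per week and no antibody. This went on for 4 weeks in the EGI-1 model, and the labels give no duration for HuCC-T1. The other 5 tumors are of HuCC-A1, a further intrahepatic line. They entered the fit to share its estimate of the spread. They also took part in its filter on low counts and in its scaling. Each model is 1 cell line, so that what sets the lines apart cannot be told apart from what sets intrahepatic and extrahepatic CCA apart. NRG mice lack T, B and natural killer cells, while their fibroblasts, vessels and myeloid cells remain.

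CCA arises in the epithelium of the bile ducts. Tumors within the liver and those of the large ducts outside it carry different sets of driver mutations and different lineage programs. Cell lines from such tumors keep part of the epithelial identity, marked by keratins, claudins and other junction proteins, and vary in how far they have taken on mesenchymal traits and matrix production. They also carry losses and gains of whole chromosome arms, as most epithelial cancers do.

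RNA was sequenced from whole tumors and counted per human gene. Totals ranged from 26163778 to 33984103 counts in HuCC-T1 and from 34239460 to 44067878 in EGI-1, so that every HuCC-T1 library was the smaller. Levels are counts per 1000000 (CPM) of each library's total after TMM scaling, with the SD over 5 tumors. The edgeR test ran on the 21019 of 58735 genes that passed a filter on low counts, with p-values adjusted by Benjamini-Hochberg, and genes under 0.05 after adjustment are those called. Log2 fold changes are HuCC-T1 minus EGI-1. The mitochondrial share of counts was 5.97 to 8.36% in HuCC-T1 and 3.94 to 5.64% in EGI-1. Log2 CPM correlated across genes between 0.923 and 0.972 among HuCC-T1 tumors, between 0.962 and 0.982 among EGI-1 tumors, and between 0.622 and 0.70 across the models.

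The difference between the models also followed the GC content of the genes. Among 14846 protein-coding genes, the median log2 fold change fell from 0.46 in the lowest of 10 equal bins of GC to -0.80 in the highest. Tumors of the same model differed along this axis too. Deviations of HuCC-T1 tumors from their model's mean correlated across genes with GC between -0.375 and 0.271, and those of EGI-1 tumors between -0.215 and 0.201. A further fit used offsets that took out each library's trend with GC. Where it changed the call of a named gene, its value is given beside the result. The counts of many gene lists changed with it too, and these are given for part of the lists only. The part of GC, of depth or of the mitochondrial share in the differences was not tested.

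Both models expressed the genes that define biliary epithelium. KRT19, a keratin of bile duct cells, had 8761.5, 3061.7, 3222.6, 5179.5 and 4122.4 CPM in the 5 HuCC-T1 tumors, and 12353.2, 8369.7, 8022, 9214.4 and 6793.9 CPM in the 5 EGI-1 tumors. The models overlapped in 1 HuCC-T1 tumor, and the log2 fold change was -0.88 ± 0.257 (SE, adjusted p = 0.00827). With GC offsets it was -0.27 and was not called (adjusted p = 0.254). EPCAM, an adhesion molecule of epithelial cells, was at 330.3 ± 51.9 CPM in HuCC-T1 and 547.6 ± 45.8 in EGI-1 (log2 fold change -0.73, adjusted p = 0.000709). KRT7, the other classic keratin of bile ducts, was far higher in HuCC-T1, at 2109.2 ± 766.6 against 55.2 ± 17.2 CPM (log2 fold change 5.25, adjusted p = 1.54e-09). KRT20, a keratin of intestinal epithelium, took the opposite pattern, with 1.90 ± 1.75 CPM in HuCC-T1 and 657.1 ± 57.1 in EGI-1 (log2 fold change -8.42, adjusted p = 1.56e-09). The tumors of the intrahepatic line thus carried the KRT7-high, KRT20-low set and those of the extrahepatic line the reverse.

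Of the 21019 genes, 5732 (27.3%) were called higher in HuCC-T1 and 5256 (25.0%) lower, together 52.3%. Of these, 6883 differed by at least 2-fold, which is 32.7% of all genes tested. The groups did not overlap in 37.7% of the genes. The median log2 fold change of all genes tested was 0.06. With GC offsets the calls were 5425 and 5090. In a fit of only the 10 tumors they were 5414 and 4993 of 19059 genes. Among protein-coding genes 4333 were higher and 4374 lower of 14876, and among long noncoding RNAs 896 were higher and 610 lower of 4044. The counts of gene groups below are set beside these shares.

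A smaller set of genes was near-absent in one model. With at least 1 CPM in every HuCC-T1 tumor and under 0.1 CPM in every EGI-1 tumor there were 84 protein-coding genes, 24 long noncoding RNAs, 5 pseudogenes and 3 others. The reverse held for 70 genes, 48 of them protein-coding and 14 long noncoding RNAs. In the HuCC-A1 tumors, 48 genes of the first set and 24 of the second were at or above 1 CPM in every tumor, and 21 and 15 were under 0.1 CPM in every tumor.

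The 250 bases before the start of 4 genes are shown because these genes were close to all-or-none between the models. TIMP3, which reached 0.283 CPM in a HuCC-T1 tumor, is outside the limit of 0.1 CPM used above. LRRN1 and TMEM47 were detected in HuCC-T1 tumors only, and TIMP3 and ID4 were high in EGI-1 tumors and near-absent in HuCC-T1. Sequences are from RefSeq (GRCh38.p14), read 5′ to 3′ on the gene's strand, and capitals mark CG dinucleotides, the bases that DNA methylation acts on in promoters.
LRRN1 (chr3:3799181-3799430, plus strand): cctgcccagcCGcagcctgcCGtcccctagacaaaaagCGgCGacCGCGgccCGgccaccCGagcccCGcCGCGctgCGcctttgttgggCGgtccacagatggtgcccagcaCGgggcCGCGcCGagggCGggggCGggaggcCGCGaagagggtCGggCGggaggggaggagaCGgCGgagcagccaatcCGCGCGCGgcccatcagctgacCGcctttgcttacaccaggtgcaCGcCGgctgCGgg
TMEM47 (chrX:34657286-34657535, minus strand): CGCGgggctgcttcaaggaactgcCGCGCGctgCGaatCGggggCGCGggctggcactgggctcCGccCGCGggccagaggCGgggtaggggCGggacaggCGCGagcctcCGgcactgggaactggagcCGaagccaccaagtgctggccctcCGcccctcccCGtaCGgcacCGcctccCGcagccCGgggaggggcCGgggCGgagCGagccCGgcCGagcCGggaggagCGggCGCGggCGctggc
TIMP3 (chr22:32801455-32801704, plus strand): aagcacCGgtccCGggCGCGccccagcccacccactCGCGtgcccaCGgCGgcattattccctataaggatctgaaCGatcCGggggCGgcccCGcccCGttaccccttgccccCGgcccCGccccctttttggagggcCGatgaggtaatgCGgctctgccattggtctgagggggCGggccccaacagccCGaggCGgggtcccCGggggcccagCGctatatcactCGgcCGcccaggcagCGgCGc
ID4 (chr6:19837120-19837369, plus strand): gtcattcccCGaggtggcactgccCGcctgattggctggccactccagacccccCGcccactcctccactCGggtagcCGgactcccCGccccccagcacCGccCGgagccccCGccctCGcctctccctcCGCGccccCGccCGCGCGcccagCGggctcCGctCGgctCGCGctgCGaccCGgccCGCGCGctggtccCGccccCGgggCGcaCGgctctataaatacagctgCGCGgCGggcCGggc
They hold 33, 34, 26 and 34 CG dinucleotides, and the motif TATAAA, searched on both strands, was found in ID4 only. At least 26 CG were found in the same 250 bases of 30.6% of the 11575 tested protein-coding genes with a promoter in that table and of 19.2% of all 27305 promoters, and TATAAA in 6.13 and 11.1%. Over the whole class the CG count set these genes apart little. In the 300 bases around the start (250 before and 50 after), 44 of 65 promoters of the protein-coding genes detected in HuCC-T1 only (67.7%) and 25 of 35 of those detected in EGI-1 only (71.4%) held at least 15 CG, against 76.8% of tested protein-coding genes. Methylation was not measured in these samples.

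**Figure D1:**
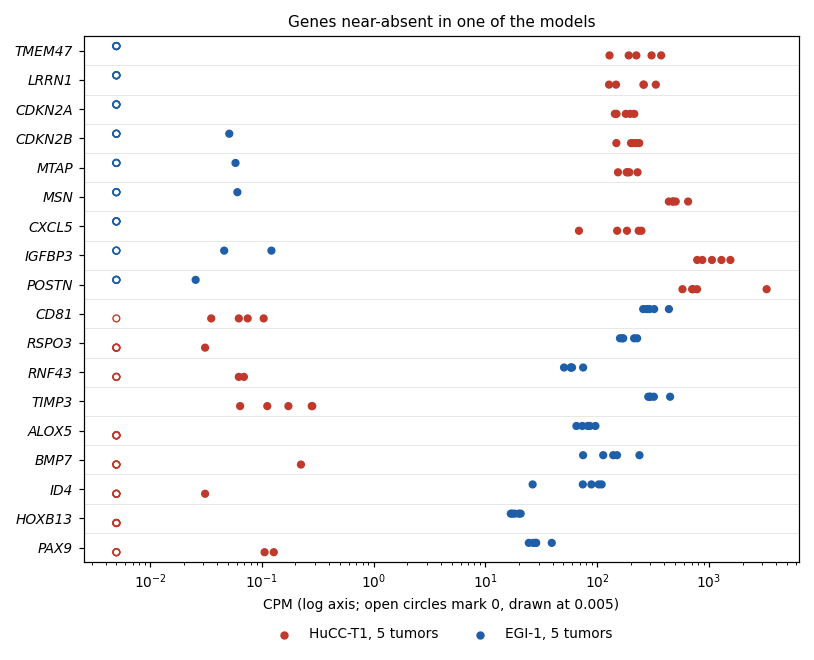
CPM in each of the 5 HuCC-T1 (red) and 5 EGI-1 (blue) tumors for 18 genes near-absent in one of the models, on a log axis, with open circles for tumors without a count. The upper 9 genes reach at least 68.8 CPM in every HuCC-T1 tumor and stay under 0.2 CPM in every EGI-1 tumor, and the lower 9 show the reverse with at least 16.9 CPM in every EGI-1 tumor and under 0.3 CPM in every HuCC-T1 tumor.

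The genes with the highest fold changes in HuCC-T1 had between 0 and 6 counts in the 5 EGI-1 tumors together. POSTN (chr13:37562583-37598844), which encodes the matrix protein periostin, had 3287, 708.4, 783.6, 721.1 and 580.5 CPM in HuCC-T1 tumors, and a single count in the 5 EGI-1 tumors together. Replicate 1 was far above the other 4 HuCC-T1 tumors, and without it the 4 still stood at over 500 CPM with 1 count in all of EGI-1. IGFBP3, a binding protein for insulin-like growth factors, had 1558.3, 873.6, 785.9, 1065 and 1295.4 CPM in HuCC-T1 and between 0 and 0.122 CPM in EGI-1, where 6 counts were found in all (adjusted p = 1.83e-12). MSN (chrX:65588377-65741931), which encodes moesin, a linker between the membrane and actin, had 438.5, 476.5, 478, 505.1 and 651.9 CPM in HuCC-T1 and 2 counts in EGI-1. TMEM47 was at 245.3 ± 96.5 CPM, LRRN1 at 226.5 ± 86.8 and the chemokine gene CXCL5 at 177.9 ± 72.6 in HuCC-T1, and none had a count in EGI-1. Against a floor of 3 counts over the EGI-1 tumors they were at least 14933-fold, at least 13788-fold and at least 10833-fold higher. ATP10A, a lipid flippase, had 141.2, 133.7, 157.2, 142 and 148.3 CPM in HuCC-T1 and 2 counts in EGI-1. The remaining genes of this group were PKIA, an inhibitor of protein kinase A, the lipid phosphatase gene PLPP4, and TNS1, which encodes tensin at focal adhesions. All 3 had no count in EGI-1 tumors. TNS1 varied most among them, with 38.4, 14.3, 20.1, 127 and 28.8 CPM in HuCC-T1.

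On the EGI-1 side, the lowest fold changes took in ligands, a tetraspanin and developmental transcription factors. CD81 (chr11:2376177-2397419), a tetraspanin of the plasma membrane and a partner of claudin-1, had 439, 323.9, 277.9, 293.8 and 258.4 CPM in EGI-1 tumors. In HuCC-T1 tumors it had 0, 0.104, 0.0748, 0.0353 and 0.0623 CPM, which is 8 counts against 57342 (log2 fold change -12.42 ± 0.326, adjusted p = 5.21e-14). RSPO3, a ligand that raises Wnt signaling, had 228.1, 171.1, 214.3, 160.2 and 168.4 CPM in EGI-1 and 1 count in HuCC-T1. RNF43, a ubiquitin ligase that removes Wnt receptors and that RSPO proteins oppose, had 75, 58.3, 59.7, 50.6 and 58.2 CPM in EGI-1 and 4 counts in HuCC-T1. The ligand and the ligase were thus both near-absent in the same model. Of the exon bases of RNF43, 73.9% are shared with other annotated genes, mainly the readthrough gene AC004687.2 on the same strand, which had 159 counts in EGI-1 and 30 in HuCC-T1. TIMP3, an inhibitor of metalloproteinases, had 450, 322.2, 300.8, 286.8 and 296.6 CPM in EGI-1 and between 0.064 and 0.283 CPM in HuCC-T1. ALOX5, the enzyme that starts leukotriene synthesis, was at 80.8 ± 12 CPM in EGI-1 and had no count in HuCC-T1, so that it was at least 3971-fold lower there. BMP7 was at 143.5 ± 61.0 CPM and ID4, a target of BMP signaling, at 80.6 ± 33.2 in EGI-1, against 6 counts and 1 count in HuCC-T1. The transcription factor genes HOXB13, FOXD1 and PAX9 were at 18.6 ± 1.60, 41.0 ± 13 and 29.5 ± 5.73 CPM in EGI-1, and no HuCC-T1 tumor passed 0.13 CPM for any of them. PPP2R2C, a subunit of protein phosphatase 2A, and the zinc finger genes ZFP30, ZNF528, ZNF43 and ZNF518B made up the rest, with between 1 and 5 counts each in the 5 HuCC-T1 tumors.

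Neighboring genes shared these patterns at a few places in the genome. On chromosome 9, the 4 expressed protein-coding genes between 21802543 and 22455740 (MTAP, CDKN2A, CDKN2B and DMRTA1) were near-absent in EGI-1 and expressed in HuCC-T1. MTAP, an enzyme of methionine salvage, had 186.5, 194.3, 184, 153.8 and 230 CPM in HuCC-T1 and 2 counts in EGI-1. CDKN2A, which encodes the inhibitors p16 and ARF, had 215.1, 144.1, 149.3, 180.7 and 197.9 CPM in HuCC-T1 and no count in EGI-1, which makes it at least 10802-fold higher. CDKN2B, which encodes p15, had 148.7, 221.9, 201.2, 207.5 and 238.3 CPM in HuCC-T1 and 2 counts in EGI-1. DMRTA1, the last of the run, was at 13.1 ± 2.89 CPM in HuCC-T1 with no count in EGI-1. The level of each of these 4 genes was close among the 5 HuCC-T1 tumors, and the EGI-1 tumors stood at or next to 0 throughout. In HuCC-A1 tumors CDKN2A and CDKN2B also had no count, while MTAP averaged 31.9 CPM and DMRTA1 18.7. DNA was not measured here, so loss of the locus and silencing cannot be told apart.

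A run on the X chromosome between 134990938 and 135052196 held SMIM10, RTL8B, RTL8C and RTL8A, of which the RTL8 genes derive from a retrotransposon. RTL8C was at 99.9 ± 19.9 and RTL8A at 81.4 ± 21.5 CPM in HuCC-T1, without a count in EGI-1. RTL8B (2.06 ± 0.667) and SMIM10 (4.52 ± 1.83) were low in HuCC-T1 and had 0 and 3 counts in EGI-1. The RTL8 genes are close copies of each other, and counting can split reads between them, so their separate levels are uncertain. In the other direction, 3 zinc finger genes on chromosome 19 between 56397966 and 56626481 (ZNF583, ZNF470 and ZNF71) were near-absent in HuCC-T1, with 3, 1 and 0 counts, and at 3.23 ± 0.714, 2.44 ± 1.09 and 3.93 ± 1.27 CPM in EGI-1. These belong to the large cluster of KRAB zinc finger genes of that chromosome. Of 220 tested genes there with ZNF or ZFP names, 22 were higher and 110 lower in HuCC-T1, with a median log2 fold change of -0.56 (-0.61 after subtracting the median of genes of like GC). The other 874 genes of chromosome 19 had 71 higher and 526 lower, with a median of -0.77 (-0.24 after the same subtraction). Of 251 such zinc finger genes on other chromosomes, 90 were higher and 56 lower, with a median of 0.08. Further runs were CDH10, CDH9 and CDH6 on chromosome 5 and genes of the MAGEA group on the X chromosome. In the first, CDH6, a cadherin, was the gene expressed in HuCC-T1, at 46.3 ± 28.2 CPM against 2 counts in EGI-1. In the second, CSAG2, MAGEA2B and MAGEA2 were near-absent in both models, while GABRA3 and MAGEA3 had 10 counts each in HuCC-T1, at most 0.218 CPM in a tumor, and none in EGI-1.

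Whole chromosomes and arms differed as well. Genes of the X chromosome had a median log2 fold change of 0.93, with 328 of 496 higher (66.1%) and 21 lower, and the 5 HuCC-T1 tumors had chromosome medians between 0.83 and 0.93 relative to EGI-1. Chromosome 7 followed at 0.59 (358 higher and 106 lower of 696) and chromosome 3 at 0.48 (400 and 101 of 836). Chromosome 19 was the lowest at -0.75 (93 and 636 of 1094), then chromosome 22 at -0.50 and chromosome 17 at -0.40. After subtraction of the median of genes of like GC content, the X chromosome stayed at 0.82, chromosome 7 at 0.53 and chromosome 3 at 0.38. Chromosomes 19, 22 and 17 came to -0.29, -0.21 and -0.23, while chromosomes 6 and 18 stood lowest at -0.45 each. The genes of chromosomes 19 and 22 are rich in GC (medians 58.7 and 56.9%).

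**Figure D2:**
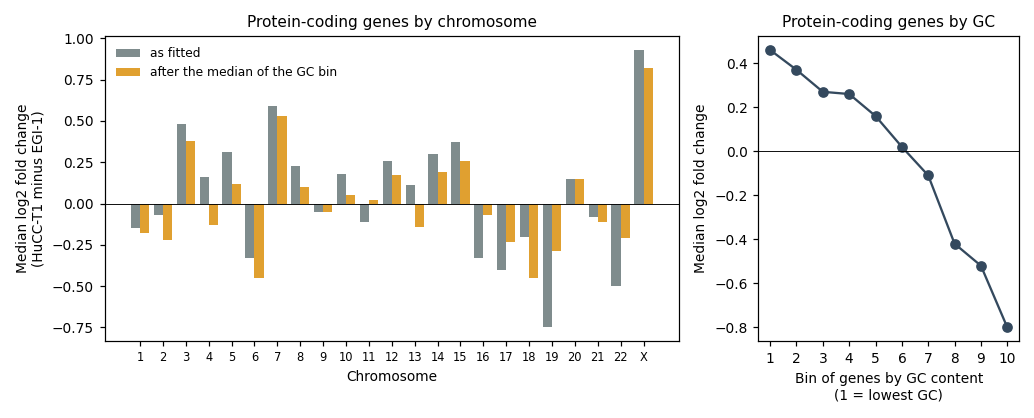
Left, the median log2 fold change of protein-coding genes on each chromosome as fitted (grey bars) and after subtraction of the median of the gene's GC bin (orange bars). The X chromosome stands at 0.93 and 0.82, and chromosome 19 moves from -0.75 to -0.29. Right, the median log2 fold change in 10 bins of genes ordered by GC content, which falls from 0.46 to -0.80.

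In windows of 50 neighboring expressed genes, 103 of 283 had a median beyond 0.5 in either direction, and 51 of these were beyond 0.5 with the same sign after the correction for GC. The 5 windows that cover chromosome 7 from 192969 to 67239519 had medians of 0.57, 1.17, 1.09, 1.22 and 0.88, the window from 69598296 to 76541459 (median GC 57.7%) had -0.05, and the next, from 76609986 to 93226524, had 1.48, the highest of the 283 windows. EGFR lies in the window with 0.88. The window on chromosome 4 between 53285 and 3532559, which holds FGFR3, had the lowest median of all, -1.57 (-1.26 after GC), with 43 of its 50 genes lower in HuCC-T1 and 1 higher. The windows at the start of chromosome 10 (46892 to 14462142) and of chromosome 18 (158383 to 21633524) were at -0.91 and -0.77, or -1.08 and -1.02 after GC. The window of the X chromosome from 103607451 to 119606443 had 38 genes higher and 1 lower and a median of 1.35 (1.17 after GC). Copy number was not measured.

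CLDN1, the tight junction protein that the study's antibody targets, differed little between these models. It had 701.4, 1338.3, 1089.8, 1022.6 and 921.5 CPM in HuCC-T1 and 603.1, 580.2, 802.1, 657.9 and 824.8 CPM in EGI-1. Replicate 1 of HuCC-T1 lay within the EGI-1 range and the other 4 above it. The log2 fold change was 0.55 ± 0.185 (adjusted p = 0.019), and it was 0.22 and not called with GC offsets (adjusted p = 0.253). The call was also lost without HuCC-T1 replicate 2 (adjusted p = 0.0641) and without EGI-1 replicate 1 or 2 (0.0502 and 0.0549). CD81, with which claudin-1 forms a receptor complex, was by contrast near-absent in HuCC-T1, as described above. Of 15 claudin genes tested, 7 were higher in HuCC-T1 and 3 lower (median 0.55). CLDN2, a claudin that forms pores for cations, had 109.4, 102.6, 205.3, 158.2 and 45.7 CPM in HuCC-T1 against 1.14 to 2.79 CPM in EGI-1 (log2 fold change 6.06, adjusted p = 1.64e-08). CLDN12 was at 131.5 ± 22.5 against 38.6 ± 5.68 CPM (1.77, adjusted p = 1.9e-08). CLDN3, by contrast, was at 6.47 ± 3.40 against 32.9 ± 8.46 CPM (-2.35, adjusted p = 2e-05). Of 26 other tight junction genes 4 were higher and 11 lower. The polarity gene CRB3 (10 ± 2.57 against 34.7 ± 2.49 CPM) and the scaffold gene TJP3 (25.5 ± 11.2 against 82.7 ± 9.07) were among the lower ones, with log2 fold changes of -1.79 and -1.70.

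Among surface antigens that antibodies are made against, 14 of 29 were lower in HuCC-T1 and 8 higher (median -0.58, or -0.35 with GC offsets). CEACAM5, an adhesion molecule of intestinal and many carcinoma cells, was at 51.8 ± 31.4 CPM against 341.9 ± 154.9 (-2.72, adjusted p = 0.000128), and VTCN1, the immune ligand B7-H4, at 5.13 ± 2.97 against 47.7 ± 7.03 (-3.22, adjusted p = 1.82e-05). On the HuCC-T1 side stood CDH6, described above. Of 12 neural and neuroendocrine genes 5 were higher and 1 lower (median 1.30, or 0.65 without HuCC-T1 replicate 1), and L1CAM, a neural adhesion molecule, was at 804.2 ± 99.9 against 58.0 ± 9.74 CPM (3.79, adjusted p = 1.05e-08).

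**Figure D3:**
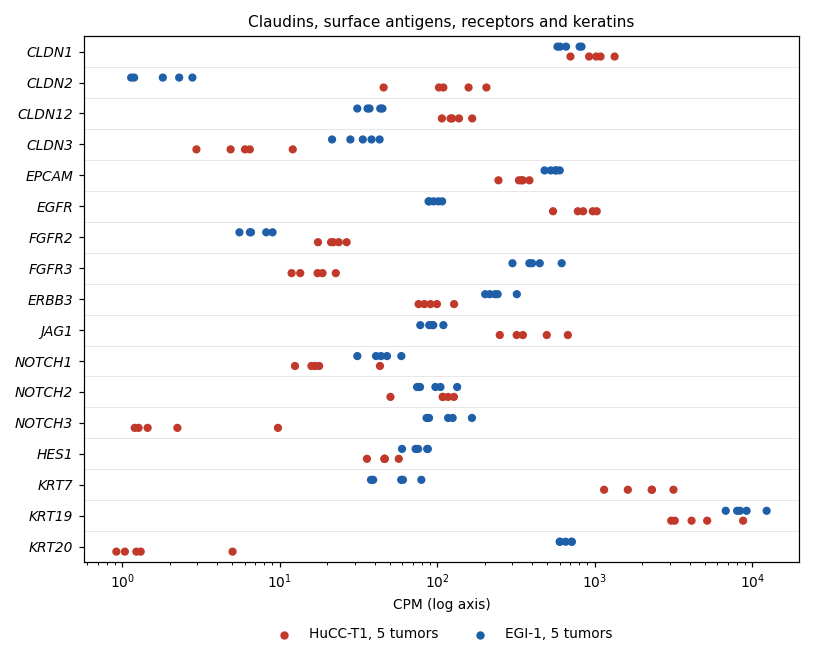
CPM in each of the 5 HuCC-T1 (red) and 5 EGI-1 (blue) tumors, on a log axis, for 17 claudins, surface antigens, receptors, ligands and keratins. CLDN1, NOTCH1, NOTCH2 and KRT19 overlap between the models, and the other 13 genes do not.

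Single growth factor receptors went in both directions. Of 17 ERBB receptors and ligands tested 5 were higher in HuCC-T1 and 5 lower (median -0.21), and with GC offsets 5 and 7. The list of FGF, MET, TAM and IGF genes leaned to HuCC-T1, with 13 of 31 higher and 5 lower (median 0.39), and with GC offsets 14 and 5. EGFR, the receptor of the EGF family of ligands, had 543.9, 972.3, 781.4, 844.8 and 1030.2 CPM in HuCC-T1 and 89.1, 88.1, 94.7, 101.6 and 107.5 CPM in EGI-1 (log2 fold change 3.12 ± 0.20, adjusted p = 1.8e-09). Its partner ERBB3 took the other direction, at 95.5 ± 20.2 against 242.6 ± 46.2 CPM (-1.34, adjusted p = 2.96e-05), while the ERBB3 ligand NRG1 was at 25.2 ± 27.3 against 1.16 ± 0.801 CPM (4.44, adjusted p = 8.69e-06). FGFR3 had 11.9, 13.5, 22.7, 18.7 and 17.4 CPM in HuCC-T1 and 400.6, 384.8, 447.9, 300.5 and 617.3 in EGI-1 (-4.67 ± 0.357, adjusted p = 1.35e-08). FGFR2, the receptor that is fused in part of intrahepatic CCA, was higher in HuCC-T1, at 22.2 ± 3.34 against 7.16 ± 1.41 CPM (1.63, adjusted p = 5.02e-07). The ligand FGF1 was at 13.8 ± 7.41 against 0.535 ± 0.406 CPM (4.68). Of 23 genes of the IL-6 family and the STAT3 axis 9 were higher and 8 lower (median -0.31, or 0.07 with GC offsets). The receptor OSMR, which binds oncostatin M, was at 77.2 ± 19.6 against 0.465 ± 0.462 CPM (7.34, adjusted p = 6.28e-09), and LIFR at 4.84 ± 3.8 against 0.0512 ± 0.0497 (6.50, adjusted p = 1.17e-07). The ligand IL11 was lower (2.35 ± 0.556 against 7.56 ± 2.65 CPM, -1.69, adjusted p = 4.43e-05). STAT3, the factor that these receptors activate, was at 216.0 ± 39.4 against 199.6 ± 14.5 CPM and was not called (0.11, adjusted p = 0.531). Of the 24 genes tested among feedback regulators and targets of ERK, 12 were lower and 2 higher in HuCC-T1 (median -0.48). DUSP5, a phosphatase that acts on ERK, was at 19.4 ± 6.97 against 113.4 ± 37.0 CPM (-2.55), and ETV4, an ETS factor induced by the pathway, at 36.6 ± 15.9 against 116.3 ± 23.8 (-1.67). Of 24 immediate early genes 9 were lower and 1 higher (median -0.55), and with GC offsets 5 and 1 (median -0.21).

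Notch is a receptor family whose ligands sit on neighboring cells and whose cleaved domain turns on HES genes. Of 40 genes of the pathway 12 were higher and 12 lower in HuCC-T1 (median -0.02), so the split lay in single members. With GC offsets 13 were higher and 8 lower (median 0.06). NOTCH3 had 2.24, 1.45, 1.27, 1.20 and 9.75 CPM in HuCC-T1 and 85.6, 88.7, 117.3, 125.4 and 166.2 in EGI-1 (-5.18 ± 0.596, adjusted p = 1.64e-06). NOTCH1 had 12.5, 17.8, 15.9, 16.8 and 43.3 CPM in HuCC-T1 and 31.1, 40.9, 48, 59.2 and 44 in EGI-1 (-1.07, adjusted p = 0.0151). Replicate 5 of HuCC-T1 was the highest of its model for both receptors and lay within the EGI-1 range for NOTCH1. With GC offsets NOTCH1 was at -0.35 and not called (adjusted p = 0.405). NOTCH2 was not called, at 102.5 ± 30.1 against 97.7 ± 24.0 CPM (0.07, adjusted p = 0.823). The ligand JAG1 had 249.7, 496.3, 319.5, 350 and 675.4 CPM in HuCC-T1 and 94.4, 89, 109.5, 78.1 and 93.3 in EGI-1 (2.17, adjusted p = 3.8e-07). The ligand DLL1 was near-absent in both models, with 21 and 11 counts. HES1, the target, was at 46.3 ± 7.5 against 76.4 ± 11.2 CPM (-0.72, adjusted p = 0.000795). Among these single genes, the ligand JAG1 was higher in HuCC-T1, and the receptor NOTCH3 and the target HES1 were higher in EGI-1.

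Of the lists of other developmental pathways, Wnt signaling and TGF-beta and BMP signaling were divided, while Hedgehog and Hippo had more genes higher than lower in HuCC-T1. In Wnt signaling 13 of 47 genes were higher and 13 lower, and with GC offsets 18 and 10. Beside RSPO3 and RNF43, the ligand WNT7A had 44.5, 38.2, 28.9, 50.9 and 46.4 CPM in HuCC-T1 and 0.0461 to 2.07 in EGI-1 (6.03, adjusted p = 5.27e-07), and the receptor FZD2 was at 22.8 ± 4.69 against 5.71 ± 1.14 CPM (2.0). In Hedgehog signaling 7 of 15 genes were higher and 2 lower. HHIP, which binds Hedgehog ligands and is a target of the pathway, was at 47.3 ± 5.67 against 0.126 ± 0.0666 CPM (8.56, adjusted p = 1.31e-11), while the signal transducer SMO had 1 count in HuCC-T1 and was at 3.79 ± 1.59 CPM in EGI-1. In TGF-beta and BMP signaling 17 of 44 genes were higher and 15 lower, and with GC offsets 12 and 15. The BMP receptor BMPR1B (21.3 ± 9.86 against 0.689 ± 0.397 CPM) and the antagonist of activin FST (108.2 ± 59.1 against 6.02 ± 3.0) were higher in HuCC-T1, with log2 fold changes of 4.93 and 4.17, against BMP7 and ID4 on the EGI-1 side. In the Hippo pathway, which holds back the coactivator YAP, 14 of 30 genes were higher and 4 lower (median 0.37, or 0.14 with GC offsets). The YAP target CTGF was at 45.7 ± 24.9 against 1.57 ± 0.451 CPM (4.87, adjusted p = 5.49e-08). VGLL3, a cofactor of the TEAD partners of YAP, was at 9.19 ± 5.49 CPM with no count in EGI-1, and VGLL1, of the same family, was lower (21.5 ± 6.82 against 105.4 ± 11.3 CPM). YAP1 itself was at 301.3 ± 55.4 against 228.9 ± 34.5 CPM (0.40, adjusted p = 0.0299), and the call was lost with GC offsets (0.13, adjusted p = 0.402), with no filter on low counts (0.41, adjusted p = 0.0677) and without any 1 of HuCC-T1 replicates 2, 3 and 4 or EGI-1 replicates 1, 2, 3 and 4 (0.31 to 0.40, adjusted p from 0.0522 to 0.0944). LATS1, the kinase that inhibits YAP, was not called (0.15, adjusted p = 0.498).

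Genes of mesenchymal cells and of epithelial-mesenchymal transition were the other large group on the HuCC-T1 side. Of 50 tested, 36 were higher in HuCC-T1 and 2 lower, with a median log2 fold change of 2.25, beside 27.3 and 25.0% and 0.06 among all genes. Median differences from the EGI-1 mean over the list were between 1.77 and 2.33 in the 5 HuCC-T1 tumors. With GC offsets the count was 40 and 1. Beside POSTN, IGFBP3 and MSN, the transcription factors ZEB1 and SNAI2, which repress epithelial genes, were at 8.55 ± 3.84 against 1.60 ± 0.586 CPM (2.42, adjusted p = 1.99e-05) and 68.8 ± 31.5 against 19.5 ± 3.95 CPM (1.82, adjusted p = 6.39e-05). SNAI1 was not called (-0.77, adjusted p = 0.299). S100A4, a calcium-binding protein that is often used as a mesenchymal marker, was one of the 2 lower genes, at 223.0 ± 92.6 against 2874.9 ± 714.8 CPM (-3.69, adjusted p = 7.15e-09). Of 38 genes of the epithelial state, 4 were higher and 22 lower (median -0.72, or -0.43 with GC offsets). The epithelial transcription factors OVOL1 and GRHL3 were at 4.02 ± 1.44 against 44.6 ± 6.64 CPM (-3.47) and 4.03 ± 0.856 against 34.3 ± 6.35 CPM (-3.09), and the membrane protease PRSS8 at 30.5 ± 6.64 against 216.5 ± 30.8 (-2.83). HuCC-T1 tumors held more of the mesenchymal and less of the epithelial transcripts, while KRT19 and EPCAM stayed above 200 CPM in each of them.

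Collagens and integrins had more genes higher than lower. Of 30 collagen genes tested 20 were higher and 5 lower (median 2.47, or 0.95 among those with at least 10 counts in each library). COL6A2, a chain of the microfibrillar type VI, had 815.6, 620, 547.2, 699.1 and 988.5 CPM in HuCC-T1 and 0.645 to 5.25 in EGI-1 (8.47, adjusted p = 6.77e-10). COL4A5, a chain of the basement membrane, was at 55.4 ± 16.5 CPM against 2 counts in EGI-1. COL9A3, a chain found in cartilage, took the other direction (3.45 ± 4.32 against 91.3 ± 27.1 CPM, -4.71). Of 16 laminins and basement membrane linkers 8 were higher and 3 lower, and with GC offsets 11 and 1. LAMA3, a chain of laminin-332, was among the higher ones (1366.9 ± 321.5 against 343.1 ± 88.3 CPM, 1.99). Of 19 integrins 10 were higher and 2 lower. ITGB2, the beta chain of leukocyte integrins, was at 32.0 ± 9.79 against 1.95 ± 0.398 CPM (4.03), and ITGAV, a chain that binds RGD motifs, at 472.3 ± 194.5 against 130.4 ± 26.8 (1.86). ITGB4, the partner of laminin-332 in hemidesmosomes, was not called (-0.18, adjusted p = 0.49), and with GC offsets it was called in the other direction (0.60, adjusted p = 0.0179). Of 43 matrix proteases and inhibitors 18 were higher and 14 lower, with a median of 0.55 that was -0.48 among those with at least 10 counts in each library. MMP12, macrophage elastase, had 180.7, 819.3, 622.4, 471.7 and 91.6 CPM in HuCC-T1 and at most 0.397 in EGI-1 (10.90, adjusted p = 9.3e-08). MMP2, gelatinase A, ran from 11.3 to 340.5 CPM in HuCC-T1 and from 0.179 to 1.74 in EGI-1 (7.23). MMP9 ran from 11.4 to 135.7 CPM in HuCC-T1, with 3 counts in EGI-1. Of 22 angiogenic factors 13 were higher and 3 lower, led by THBS1, an inhibitor of angiogenesis and a YAP target, which had 1908.9, 4359.3, 4460.2, 3711.2 and 3726.6 CPM against 41.3 to 80.1 (5.97, adjusted p = 1.49e-10).

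Fibroblast markers moved in the same direction as these groups. Of 8 tested 6 were higher in HuCC-T1 and 1 lower, and the summed level of the 12 on the list was between 105.4 and 521.7 CPM in HuCC-T1 and between 75.2 and 128.3 in EGI-1. Most of these sums came from markers not named here. The ones named below made up a small part of them in both models, with FAP the highest in HuCC-T1. ACTA2, smooth muscle actin, was at 6.68 ± 2.33 against 0.572 ± 0.205 CPM (3.54), FAP, fibroblast activation protein, at 9.77 ± 5.33 against 0.402 ± 0.215 (4.59), and COL1A2 at 8.53 ± 5.94 against 0.108 ± 0.138 (6.33). DPT had no count in the 10 tumors, and THY1 averaged 0.032 CPM in HuCC-T1 and 0.0999 in EGI-1. DCN averaged 0.0999 and 0.0158 CPM. In whole tumors, fewer cells of a type and less RNA per cell cannot be told apart, and the share of mouse reads counted on human genes was not tested. LUM, lumican, was the 1 marker called lower (0.550 ± 0.291 against 1.57 ± 0.982 CPM, -1.51). Endothelial markers went both ways. Of 8 tested 4 were higher and 2 lower (median 1.44). In a fit of only the 10 tumors the median was 0.12 over 7 genes. Tumor medians lay between 0.87 and 1.73 in HuCC-T1 and between -0.11 and 0.35 in EGI-1. PECAM1, an adhesion molecule of endothelium and blood cells, was at 14.6 ± 4.92 against 1.94 ± 0.831 CPM (2.91), and EGFL7, a factor secreted by endothelium, at 0.236 ± 0.156 against 11.2 ± 2.78 (-5.52). The part of host cells in the mesenchymal and matrix differences was not tested. The 12 endothelial markers summed to between 14.8 and 26.5 CPM in HuCC-T1 and between 14.8 and 21.7 in EGI-1. The 16 myeloid markers summed to between 18.5 and 47.4 and between 40.6 and 57.3 CPM, and C1QA, C1QB and TYROBP had no count in any of the 10 tumors. Lymphocyte markers summed to at most 7.55 CPM, erythroid markers to at most 0.927, and markers of fat and muscle to between 14.1 and 24.8 in HuCC-T1 and between 38.3 and 92.6 in EGI-1.

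**Figure D4:**
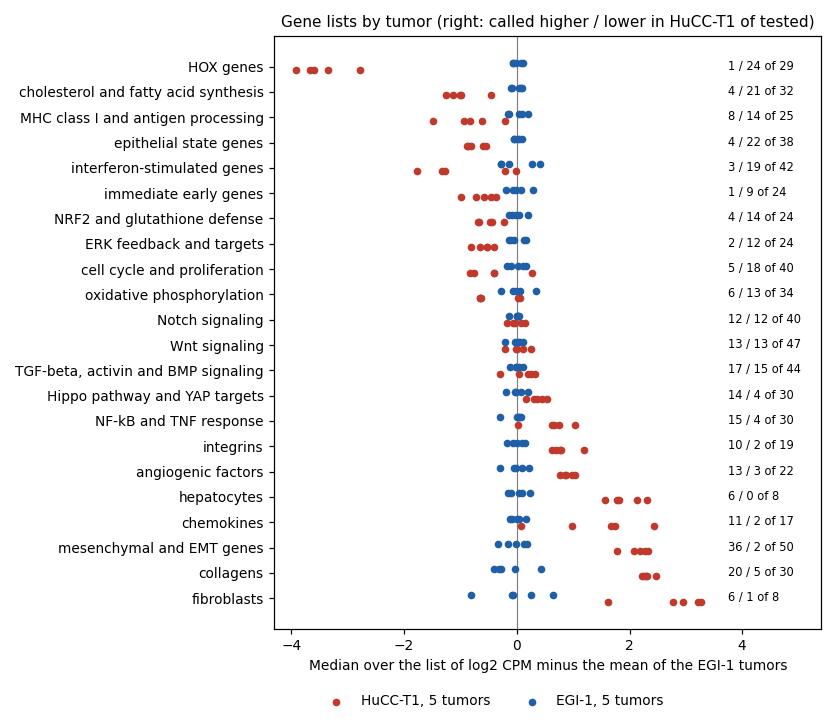
Median over the genes of each list of log2 CPM minus the mean of the EGI-1 tumors, 1 point per tumor, for 22 lists (HuCC-T1 red, EGI-1 blue), with the numbers of genes called higher and lower in HuCC-T1 at the right. HuCC-T1 tumors lie between -3.92 and -2.77 for HOX genes and between 2.23 and 2.47 for collagens, while Notch and Wnt genes center on 0 in both models.

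Homeobox genes of the HOX clusters, which record the position of a tissue along the body axis, were lower in HuCC-T1 almost throughout. Of 29 HOX genes tested 24 were lower and 1 higher, with a median log2 fold change of -3.83 (-1.36 among those with at least 10 counts in each library). Of the lower ones 23 did not overlap between the models. Among all 21019 genes tested, 3951 were lower without overlap. All 7 tested genes of the HOXC cluster were lower, as were 9 of 10 of the HOXB cluster and 7 of 11 of the HOXA cluster. HOXB13, a gene of the hindgut and prostate, had 20.7, 17.4, 19.9, 18.3 and 16.9 CPM in EGI-1 and no count in HuCC-T1 (at least 915-fold lower). HOXA11 had 8.82, 7.83, 6.01, 6.09 and 6.61 CPM in EGI-1 and also no count in HuCC-T1. HOXA9 had 7.08 to 8.88 CPM in EGI-1 and 1 count in HuCC-T1. HOXA11 and HOXA9 share 31.1 and 27.0% of their exon bases with other genes, mostly antisense ones. The exception was HOXA3, at 19.6 ± 2.81 against 7.38 ± 0.947 CPM (1.41, adjusted p = 7.55e-07). The HOXB cluster stayed expressed in HuCC-T1, with summed levels between 217 and 277 CPM against 501 to 649 in EGI-1. HOXA genes lie on the short arm of chromosome 7, in a window of genes whose median was 1.09 in the other direction.

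**Figure D5:**
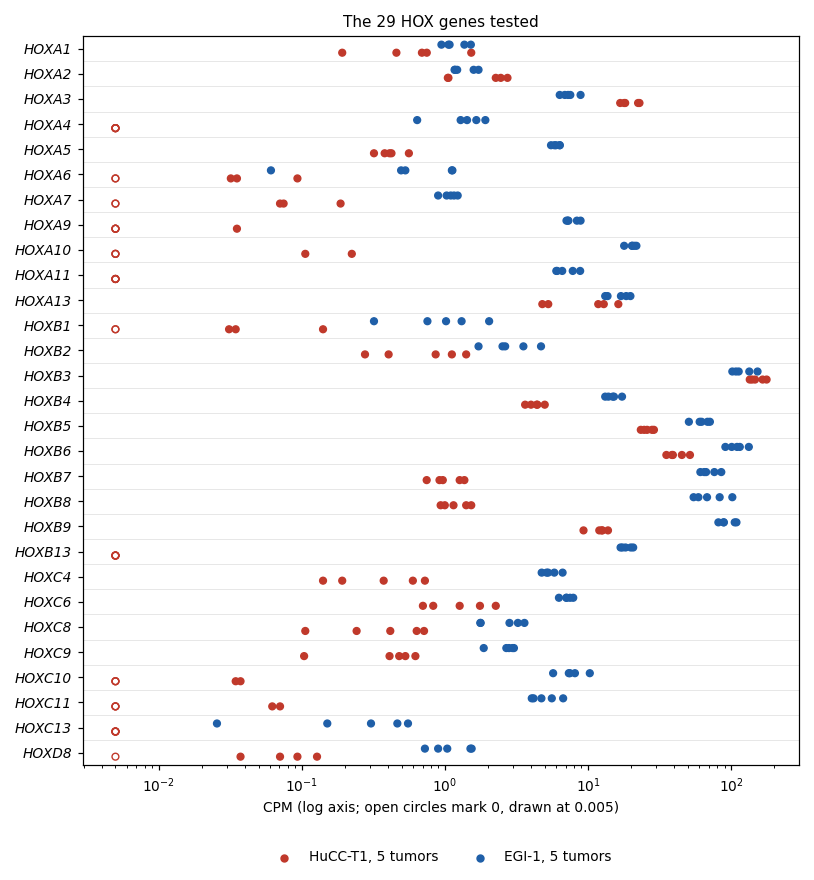
CPM of the 29 HOX genes tested in each of the 5 HuCC-T1 (red) and 5 EGI-1 (blue) tumors, on a log axis, with open circles for tumors without a count. HOXA4, HOXA11, HOXB13 and HOXC13 have no count in the 5 HuCC-T1 tumors, and HOXA3 is the gene with the 5 HuCC-T1 tumors above the 5 EGI-1 tumors.

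Lineage genes of the liver, the gut and stratified epithelia differed gene by gene. Of 8 hepatocyte genes tested 6 were higher in HuCC-T1 and none lower (median 1.73), while ALB, the defining product of hepatocytes, averaged 0.0189 and 0.139 CPM. CYP2E1, an oxidase of liver cells, was at 24.4 ± 5.44 against 2.48 ± 0.603 CPM (3.30), with 23.9% of its exon bases shared with other genes. Of 22 hepatobiliary transcription factors 9 were higher and 6 lower (median 0.13). HNF4A, the hepatocyte nuclear factor, was at 22.5 ± 13.3 against 4.69 ± 1.53 CPM (2.26, adjusted p = 0.000156), and FOXA2, of the same network, at 24.2 ± 4.51 against 2.16 ± 0.686 (3.48, adjusted p = 1.11e-06). Of 31 genes of intestinal and gastric epithelium 11 were higher and 10 lower. The brush border peptidase ANPEP had 163.1, 151.3, 207.2, 113.2 and 279.9 CPM in HuCC-T1 and at most 0.179 in EGI-1 (10.89, adjusted p = 1.98e-11), whereas the intestinal transcription factor CDX2 was at 0.191 ± 0.106 against 4.60 ± 0.518 CPM (-4.54, adjusted p = 1.14e-06). PROX1, a homeobox factor of liver progenitors and lymphatic vessels, was lower (0.201 ± 0.0537 against 6.53 ± 2.92 CPM, -4.99, adjusted p = 2.71e-08). Of 14 mucins 3 were higher and 5 lower. MUC6, a mucin of gastric glands and bile ducts, had 410.4, 208.9, 345.3, 127.2 and 139.9 CPM in HuCC-T1 and 0.397 to 3.94 in EGI-1 (7.18, adjusted p = 5.23e-08). The membrane mucin MUC4 was at 4.40 ± 3.82 against 81.0 ± 17.8 CPM (-4.19), and MUC2, the gel mucin of goblet cells, at 2.70 ± 1.87 against 22.1 ± 9.42 (-3.03). Of 23 keratins 6 were higher and 11 lower. KRT81, a hair keratin with close copies among which counting can split reads, was at 392.1 ± 179.5 against 6769.1 ± 2180.9 CPM (-4.11, adjusted p = 2.06e-06). S100P, a calcium-binding protein of many carcinomas, was at 5.09 ± 3.42 against 1122.9 ± 449.8 CPM (-7.78, adjusted p = 5.43e-09). Of 35 squamous genes 14 were higher and 12 lower. The desmosomal cadherin DSG3 was at 106.0 ± 51.1 against 1.73 ± 1.42 CPM (5.93), and involucrin, IVL, a protein of the cornified envelope, at 0.350 ± 0.435 against 98.8 ± 63.9 (-8.07).

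Of genes tied to stem cells, 5 of 19 were higher and 5 lower (median 0.11). CD44, a hyaluronan receptor, was at 2198.3 ± 348.7 against 575.1 ± 65.5 CPM (1.93, adjusted p = 2.62e-08), and PROM1, the antigen CD133, at 167.3 ± 89.6 against 25.8 ± 5.54 (2.70, adjusted p = 5.27e-05). POU5F1 was at 16.1 ± 6.40 against 5.62 ± 1.56 CPM (1.52, adjusted p = 0.000266), and its reads may come in part from pseudogene copies. SALL4, a factor of embryonic stem cells, was lower (0.652 ± 0.532 against 4.12 ± 2.97 CPM, -2.65, adjusted p = 0.00385). SOX2 was at 0.392 ± 0.422 CPM in HuCC-T1 and had no count in EGI-1.

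Immune genes in these whole tumors were divided by kind. Of 17 chemokines tested 11 were higher and 2 lower in HuCC-T1 (median 1.80, with HuCC-T1 tumors between 0.08 and 2.44). Beside CXCL5, the neutrophil attractant CXCL6 had 12.3, 24.6, 49.5, 17.6 and 33 CPM in HuCC-T1 and no count in EGI-1 (at least 1668-fold higher), and CCL20 was at 14 ± 4.67 against 0.270 ± 0.250 CPM (5.68, adjusted p = 4.74e-06). CXCL16 was lower (40.8 ± 7.97 against 59.3 ± 7.25 CPM, -0.54, adjusted p = 0.0104), a call that was lost with GC offsets (adjusted p = 0.436). Of 30 genes of the NF-kB and TNF response 15 were higher and 4 lower (median 0.69), among them PTGS2, the inducible cyclooxygenase, with 75.1, 171.1, 441, 301.4 and 74.9 CPM against 5.60 to 18.4 (4.53, adjusted p = 2.87e-06). Interferon-stimulated genes went the other way, with 19 of 42 lower and 3 higher (median -0.65). Replicates 3 and 5 of HuCC-T1 had list medians of -0.20 and -0.01, within the EGI-1 range of -0.29 to 0.40, and the other 3 lay between -1.76 and -1.27. Without replicate 5 the median was -0.99. HERC5, a ligase for ISG15, was at 0.482 ± 0.432 against 51.6 ± 9.17 CPM (-6.72, adjusted p = 7.4e-09). ISG15 had 57.5, 39.9, 102.5, 49.2 and 262.7 CPM in HuCC-T1 and 729.5, 916.7, 509.3, 438.7 and 471 in EGI-1 (-2.58, adjusted p = 0.000132). SAMD9L was one of the 3 higher genes (206.2 ± 101.7 against 40.4 ± 14.6 CPM, 2.35). Of 25 genes of MHC class I, antigen processing and MHC class II 14 were lower and 8 higher. HLA-C was at 68.0 ± 27.2 against 463.5 ± 137.9 CPM (-2.77). Reads of such polymorphic genes may align unequally for different alleles, which was not tested. HLA-DRA, a class II chain, was at 10.9 ± 6.06 against 0.0723 ± 0.0711 CPM (7.18, adjusted p = 2.48e-06). Complement genes C1R and C1S were at 37.6 ± 37.9 against 0.923 ± 0.211 CPM (5.34) and 52.0 ± 56.3 against 1.64 ± 0.450 (4.98), with replicate 5 of HuCC-T1 far above the other 4.

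Metabolic lists differed in direction. Of 39 genes of xenobiotic metabolism 15 were higher in HuCC-T1 and 10 lower (median 0.21), and of 23 genes of serine synthesis and ATF4 targets 8 were higher and 8 lower (median -0.23). Of 32 genes of cholesterol and fatty acid synthesis 21 were lower in HuCC-T1 and 4 higher (median -1.0), and with GC offsets 24 and 2 (median -0.85). SREBF1, the transcription factor that drives lipid synthesis, had 65.9, 54.9, 53.5, 68.7 and 106 CPM in HuCC-T1 and 407.4, 415.4, 422.1, 382.6 and 427.7 in EGI-1 (-2.56 ± 0.190, adjusted p = 9.73e-09). FABP5, a carrier of fatty acids, was at 12.1 ± 13 against 129.8 ± 56.8 CPM (-3.42). FADS2, a desaturase, was among the 4 higher genes (6.10 ± 2.11 against 2.71 ± 0.468 CPM, 1.17). VLDLR, a lipoprotein receptor counted here among targets of ATF4, was at 22.4 ± 6.04 against 0.164 ± 0.0645 CPM (7.03, adjusted p = 7.56e-11). Of 24 genes of NRF2 and glutathione defense 14 were lower and 4 higher (median -0.52), and with GC offsets 11 and 4 (median -0.14). AKR1C2, an aldo-keto reductase, was at 48.7 ± 14.3 against 376.8 ± 76.5 CPM (-2.95), HMOX1, heme oxygenase, at 4.74 ± 1.40 against 28.4 ± 5.15 (-2.58), and AKR1B10, of the same family as the former, at 12 ± 6.96 against 0.239 ± 0.145 (5.65). PSAT1, an enzyme of serine synthesis, had 18.4, 14.6, 19.1, 11.2 and 12.3 CPM in EGI-1 and 3 counts in HuCC-T1. In hypoxia and glycolysis 11 of 33 genes were higher and 12 lower. The carbonic anhydrase CA12 was at 90.6 ± 32.4 against 2.78 ± 2.33 CPM (5.02) and the lactate exporter SLC16A3 at 182.4 ± 59.4 against 622.0 ± 101.0 (-1.77). Of 34 nuclear genes of oxidative phosphorylation 13 were lower and 6 higher (median -0.35), and with GC offsets 11 and 2 (median -0.27). Replicates 1 and 5 of HuCC-T1 had list medians of 0.05 and 0.02, within the EGI-1 range of -0.29 to 0.34, and the other 3 were near -0.65. COX7A2, a subunit of complex IV, was at 38.4 ± 14.9 against 145.1 ± 38.2 CPM (-1.92). The sodium channel subunit SCNN1A, a gene of absorptive epithelium, was at 53.3 ± 10.1 against 536.8 ± 56.7 CPM (-3.33, adjusted p = 2.02e-10).

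Of 40 genes of the cell cycle 18 were lower in HuCC-T1 and 5 higher (median -0.38). Replicate 5 of HuCC-T1 had a list median of 0.26, above every EGI-1 tumor, and the other 4 lay between -0.84 and -0.40. Without it the median was -0.57. CCNE1, cyclin E, was at 4.60 ± 2.55 against 18.3 ± 4.39 CPM (-1.99, adjusted p = 2.86e-05), and E2F1, which acts with it at entry into S phase, at 16.5 ± 9.65 against 47.5 ± 15.6 (-1.53, adjusted p = 0.000752). CDKN2A was the gene with the highest fold change on this list and stood on the HuCC-T1 side. MKI67, the marker of cycling cells, was not called, with 178, 183.4, 148.7, 136 and 361.7 CPM in HuCC-T1 and 135.3 to 172.5 in EGI-1 (0.41, adjusted p = 0.171). MYC was not called either (54.3 ± 37.5 against 33.8 ± 2.63 CPM, 0.68, adjusted p = 0.103), although with GC offsets it passed the threshold (0.81, adjusted p = 0.05). For both, replicate 5 of HuCC-T1 was the highest of the 10 tumors.

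Tumors of HuCC-T1 varied more than those of EGI-1. This was taken over the protein-coding genes whose log2 CPM averaged at least 3 in the model. Their median SD of log2 CPM was 0.33 in HuCC-T1 and 0.20 in EGI-1. An SD over 1 was found in 154 of 10165 genes in HuCC-T1 and in 30 of 10177 in EGI-1. KRT4, a keratin of esophageal epithelium, had 157, 9.06, 5.39, 5.51 and 72.5 CPM in HuCC-T1, and S100A9, an alarmin of keratinocytes and neutrophils, had 88, 2.80, 5.72, 5.12 and 89.9. Replicates 1 and 5 were high for both. KRT14, a keratin of basal cells, had 365.8, 288.5, 246.3, 221.9 and 2252.2 CPM in HuCC-T1 and 178.9, 12.1, 29.3, 12.5 and 9.83 in EGI-1, with 1 tumor of each model far above the others. ZNF385D, a zinc finger gene, had 21.3, 0.380, 30.6, 13.5 and 9.90 CPM in HuCC-T1 and no count in EGI-1. In EGI-1, CALB1, a calcium buffer, had 39.2, 2.42, 31.4, 31.7 and 4.15 CPM, and the protease inhibitor gene SPINK7 had 56.5, 2.93, 17.9, 3.06 and 26.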

How the data were processed

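RNA from whole tumors was extracted with Trizol, and libraries were made with a directional kit (NEBNext Ultra II Directional). The deposited table holds counts of reads per gene that the authors made; the submitters' processing notes name CASAVA, HISAT2 (2.0.5), featureCounts (1.5.0-p3) and GRCh38. Not given in the sources used here were whether mouse reads were removed, which annotation release was counted and with which strand setting. All 58735 gene IDs matched GENCODE release 29, from which coordinates were taken. Genes of chromosome Y and XIST were not named.

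Counts were fitted as deposited with edgeR (4.0.16, R 4.3.3; quasi-likelihood F test, TMM factors) over all 15 tumors in 3 groups, with 12 residual degrees of freedom, and p-values were adjusted over all 21019 genes (Benjamini-Hochberg). SE is the log2 fold change over the square root of F. Nothing in the labels says that tumors came from separate injections of separate cultures, so p-values measure the spread between these mice. Pairs of tumors of 1 model differed by more than sampling noise (chi-square per degree of freedom at least 33.6). Counts were also simulated for this comparison, with 19634 genes tested. Both models were drawn from EGI-1 means, few genes were changed and no trend with GC was put in. Called were 12 of 19434 unchanged genes, 48 of 100 changed 2-fold and 90 of 100 changed 4-fold. In the data 52.3% of genes were called, so these rates cannot be carried over. A floor of 3 counts over the 5 tumors was used for genes with no count in a model; floors cover counting error only.

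The members and gene lists were chosen with earlier results of these data known. Named genes were those the study links to these models, the 15 highest and 15 lowest fold changes among called protein-coding genes that did not overlap (mean log2 CPM at least 3), up to 3 called genes of each list in its more frequent direction and 1 in the other (mean log2 CPM at least 1), the 3 most variable genes of each model, and runs of at least 3 neighboring genes near-absent in a model. Marker genes of other cells are named from their lists. Alternatives were DESeq2 (1.42.0), limma-voom (3.58.1), other scaling and filters, thinning to 20001412 counts, only the 10 tumors, a replicate block, leaving out each tumor and, added after seeing the data, GC offsets. Some results were left out and are not reported here.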

Additional observations from a re-analysis of the deposited data

Results flagged for a closer look

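Groups of 5 values were tested for the named genes (Dixon's test, 95% critical value). A tumor stood apart from the other 4 of its model in 57 of 298 groups, which is 19.1%. Chance would flag about 1 in 20 groups if values were normally distributed and groups independent. Here 22 flags were in groups under 1 CPM, and the genes of a model share the same 5 tumors. Some genes were also named for their high variation. The 19.1% therefore cannot be read against that rate. Of the 57 flags, 35 were in groups that reached 1 CPM, 19 of them in HuCC-T1 replicate 5. No cause was tested.

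HuCC-T1 replicate 1 was the highest of its model, apart from the others, for KRT20 (5.02 CPM) and POSTN (3287 CPM). HuCC-T1 replicate 1 was the lowest of its model, apart from the others, for NOTCH2 (50.5 CPM). HuCC-T1 replicate 4 was the highest of its model, apart from the others, for TNS1 (127.0 CPM). HuCC-T1 replicate 5 was the highest of its model, apart from the others, for C1R (104.2 CPM), C1S (151.5 CPM), CALB1 (25.0 CPM), CCNE1 (9.09 CPM), COL9A3 (11 CPM), FABP5 (35.2 CPM), FST (210.6 CPM), ISG15 (262.7 CPM), KRT14 (2252.2 CPM), MKI67 (361.7 CPM), MMP9 (135.7 CPM), MUC4 (11.1 CPM), MYC (120.6 CPM), NOTCH1 (43.3 CPM), NOTCH3 (9.75 CPM), NRG1 (74.0 CPM), OVOL1 (6.54 CPM) and SREBF1 (106.0 CPM). HuCC-T1 replicate 5 was the lowest of its model, apart from the others, for VLDLR (11.7 CPM). EGI-1 replicate 1 was the highest of its model, apart from the others, for COL6A2 (5.25 CPM), KRT14 (178.9 CPM), TIMP3 (450.0 CPM), VGLL1 (124.7 CPM) and WNT7A (2.07 CPM). EGI-1 replicate 2 was the highest of its model, apart from the others, for COL9A3 (138.3 CPM). EGI-1 replicate 4 was the highest of its model, apart from the others, for PROM1 (35.6 CPM) and ZNF470 (4.37 CPM). EGI-1 replicate 5 was the highest of its model, apart from the others, for CEACAM5 (604.6 CPM), PAX9 (39.3 CPM), PTGS2 (18.4 CPM) and STAT3 (224.4 CPM). 

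The remaining flags rest on a few counts, in genes under 1 CPM in every tumor of the model. In HuCC-T1 these were BMP7 (replicate 3, 0.224 CPM), CDH10 (replicate 1, 0.384 CPM), FOXD1 (replicate 5, 0.0311 CPM), HOXA9 (replicate 4, 0.0353 CPM), ID4 (replicate 5, 0.0311 CPM), PSAT1 (replicate 1, 0.0959 CPM), RSPO3 (replicate 5, 0.0311 CPM), SMO (replicate 3, 0.0374 CPM), ZFP30 (replicate 2, 0.0346 CPM), ZNF470 (replicate 5, 0.0311 CPM), ZNF518B (replicate 1, 0.128 CPM) and ZNF583 (replicate 1, 0.0959 CPM). In EGI-1 these were ANPEP (replicate 5, 0.179 CPM), ATP10A (replicate 1, 0.061 CPM), CDH6 (replicate 2, 0.0605 CPM), CDH9 (replicate 3, 0.0461 CPM), CDKN2B (replicate 5, 0.0512 CPM), COL4A5 (replicate 1, 0.061 CPM), MSN (replicate 2, 0.0605 CPM), MTAP (replicate 4, 0.0582 CPM), POSTN (replicate 5, 0.0256 CPM) and SMIM10 (replicate 2, 0.0907 CPM).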

How the results depend on the processing

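The counts of genes called higher and lower stayed within 1.5 times under every alternative run: 6221 and 5357 by DESeq2, 5655 and 5584 by limma-voom, 5425 and 5090 with GC offsets. With at least 10 counts in each library, 3701 of the 13786 genes tested were called and at least 2-fold different. Without that limit it was 6883 of 21019, and the cause of the change was not tested. Leaving out each tumor in turn gave 5316 to 6085 higher and 4864 to 5381 lower. Replicate numbers share only a number: same-numbered tumors correlated between -0.172 and 0.331, and 2 of 5 HuCC-T1 tumors correlated best with their own. With the replicate block, 5456 genes were higher and 5249 lower. Medians of 29 of 54 lists moved by more than the spread between tumors under some alternative, and the cause was not tested. With at least 10 counts in each library, medians were 2.24 (hepatocytes), -1.36 (HOX genes), 0.09 (claudins), 1.59 (mesenchymal and EMT genes), 0.12 (Hedgehog signaling), 0.95 (collagens), 0.48 (integrins), -0.48 (matrix proteases and inhibitors), -0.82 (surface antigens of antibody therapies), -0.30 (xenobiotic metabolism), 2.18 (fibroblasts) and -1.34 (adipocytes and muscle). In a fit of only the 10 tumors, medians were 5.57 (cancer-testis antigens), 0.15 (Hedgehog signaling), 0.12 (endothelial cells) and -1.35 (adipocytes and muscle). By limma-voom, medians were 1.40 (cancer-testis antigens), 0.30 (immune checkpoint ligands), 2.06 (collagens) and 0.44 (macrophages and myeloid cells). With thinned counts, medians were 2.32 (cancer-testis antigens), 0.22 (Hedgehog signaling), 2.44 (lymphocytes) and -1.71 (adipocytes and muscle). With GC offsets, medians were -0.43 (epithelial state genes), 1.98 (mesenchymal and EMT genes), 0.14 (Hippo pathway and YAP targets), 0.30 (Wnt signaling), 0.07 (IL-6 family and STAT3 axis), -0.21 (immediate early genes), 0.82 (Hedgehog signaling), 0.64 (Eph receptors, ephrins and guidance genes), 1.01 (laminins and basement membrane linkers), 0.31 (matrix proteases and inhibitors), -0.35 (surface antigens of antibody therapies) and -0.14 (NRF2 and glutathione defense). Without 1 tumor, medians ranged from 1.48 to 2.19 (hepatocytes), from -1.39 to 0.09 (keratins), from 2.47 to 3.82 (cancer-testis antigens), from 0.49 to 0.69 (claudins), from -0.15 to 0.04 (Notch signaling), from 0.05 to 0.53 (complement and regulators), from 2.28 to 3.0 (collagens), from 0.23 to 0.51 (drug and bile transporters and secretion channels) and from -0.40 to 0.47 (macrophages and myeloid cells). Of 160 named genes examined 151 were called. The calls of CDH10, CDH9, CLDN1, CXCL16, GABRA3, KRT19, KRT4, MAGEA3, NOTCH1, S100A9 and YAP1 were lost under at least 1 alternative. Of the others, MYC, CALB1 and DLL1 were called under at least 1, and ITGB4 reversed with GC offsets (0.60). Genes with a few counts in a model limit how large a fold can be measured.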
